A study of Mus musculus with 2 samples.

Results

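Hgf, Mst1, their receptors Met and Mst1r, the activating protease Hgfac and the protease inhibitors Spint1 and Spint2 were examined in cultured intestinal subepithelial myofibroblasts (ISEMFs). These 7 genes were taken by gene symbol from a table of 37309 genes, and each symbol named 1 row. RNA had been sequenced from ISEMFs grown from the small intestine of wild-type C57BL/6 mice. The supportive library came from neonates, which the study's methods give as 5-day-old, and the non-supportive library from adult mice, given as 2-month-old. Both populations were expanded in the same serum-containing medium with insulin, transferrin and epidermal growth factor. There was 1 library per population, so no difference has a replicate check, no p-value is given, and population, age of the mice, separate isolation and culture passage cannot be told apart. How many mice were pooled is not given in the sources used here. The deposited data tag the supportive culture P16 and the non-supportive culture P3, and no source says whether these tags are passage numbers. If they are, the cultures also differed widely in passage, which bears on every ratio below, that of Hgf included.

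Hepatocyte growth factor, the product of Hgf, is a mesenchymal ligand that acts on epithelial cells through the receptor tyrosine kinase Met. Macrophage-stimulating protein, the product of Mst1, is its closest relative and acts through the related receptor Mst1r, also called Ron. Mst1 and Hgfac are mainly expressed in liver. Both ligands are secreted as inactive single chains and become active when a serine protease cuts them. Hgfac is such a protease, and the Kunitz-type inhibitors encoded by Spint1 and Spint2, found mostly in epithelial cells, block Hgfac and related proteases. In the gut, stromal cells are a known source of Hgf, and crypt epithelium carries Met.

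The ligands are built like serine proteases but do not cut proteins, and the coding sequence shows where they depart from one. Each stretch below is 45 bases of coding sequence, 5′ to 3′, with the codon at the position of the catalytic serine in capitals. They are shown because the same codon separates the ligands of the family from the protease that activates them. Hgf and Mst1 have a tyrosine codon there and Hgfac a serine codon.
Hgf: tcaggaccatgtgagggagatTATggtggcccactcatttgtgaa
Mst1: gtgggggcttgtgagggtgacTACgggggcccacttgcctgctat
Hgfac: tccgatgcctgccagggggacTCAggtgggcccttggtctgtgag
The codon was located as the middle residue of the only match in each translated sequence to glycine, aspartate, any residue, glycine, glycine. All 3 genes lie on the plus strand of mm9, and in each the stretch spans the junction into the last exon of the transcript used. The Hgf codon is at residue 676 of 728 and lies on chromosome 5 in exon 19 of 19, ending at base 16124652. The Mst1 codon is at residue 666 of 716 and lies on chromosome 9 in exon 18 of 18, ending at base 107987113. The Hgfac codon is at residue 596 of 653 and lies on chromosome 5 in exon 14 of 14, ending at base 35390814. Plau and Plat, further proteases that can activate Hgf, also have a serine codon at this place. Over the aligned residues, the translated Hgf and Mst1 were 45.4% identical and the receptors Met and Mst1r 39.2% identical.

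The level of a gene is given as RPKM, the number of reads per kilobase of the gene's exons and per unit of library size. Genes with an RPKM of 1 or more in the supportive or the non-supportive library are called expressed. The library sizes behind the RPKM values were 71463423 reads for the supportive and 69449374 for the non-supportive library. The supportive library held 50674472 reads on genes and the non-supportive library 49615497. Mitochondrially encoded genes took 14.6% of these reads in the supportive library and 7.85% in the other. Intervals are exact 95% intervals from the read counts, which cover counting error only. The log2 ratio is that of supportive over non-supportive RPKM after adding 0.1, so differences of genes near 0 are understated. Its median over the 10086 expressed genes was -0.07. In bulk RNA, fewer cells of a type and less RNA per cell cannot be told apart.

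Hgf was the member that differed most clearly, with the higher level in supportive ISEMFs. It lies on the plus strand of chromosome 5 of mm9 from 16059368 to 16125257, in 19 exons. Its 1651 reads in the supportive library gave an RPKM of 8.39 (interval 7.99 to 8.80). The 171 reads in the non-supportive library gave 0.894 (interval 0.765 to 1.04). The intervals of the libraries did not overlap. The RPKM ratio was 9.38, with an exact interval of 8.01 to 11.05, and the log2 ratio was 3.09. The supportive library thus held 90.6% of the 2 libraries' Hgf reads. Among protein-coding genes Hgf had rank 2753 by RPKM in the supportive library and rank 8699 in the non-supportive library. By log2 ratio it had rank 131 of the 10086 expressed genes.

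Met, the receptor that Hgf binds, was at nearly the same level in both libraries. It lies on the plus strand of chromosome 6 from 17413800 to 17523980. Met had 2580 reads in supportive ISEMFs, an RPKM of 3.54 (interval 3.40 to 3.68). Its 2554 reads in non-supportive ISEMFs gave 3.60 (interval 3.47 to 3.75). These intervals overlapped, and the ratio of 0.982 had an interval of 0.929 to 1.04. The log2 ratio of -0.03 had no stable sign: it was 0.01 to 0.05 under the other scalings and 0.09 when mitochondrially encoded genes were left out of the library size. Per length, Hgf was 2.37-fold above Met in the supportive library, and Met was 4.03-fold above Hgf in the non-supportive library. Both comparisons rest on the deposited exon lengths, as do all ranks by RPKM. For Hgf that length, 2755 bases, equals the one in the annotation used here, but for Met it is 10202 against 7720. With the shorter length, Met would stand higher relative to Hgf in both libraries.

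**Figure D1:**
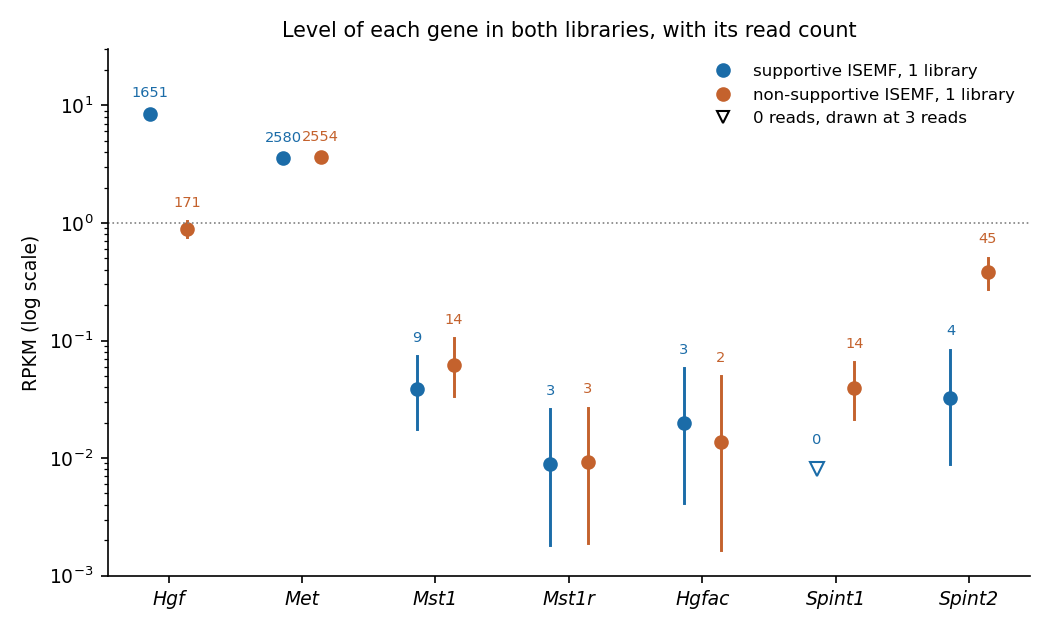
RPKM of the 7 genes on a log axis, with 1 point per library, the exact 95% interval from the reads as a line and the read count above it. The dotted line is an RPKM of 1. Hgf is at 8.39 (supportive) and 0.894 (non-supportive), Met at 3.54 and 3.60, and the other 5 genes are below 1 in both.

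The branch of Mst1 and its receptor was close to the limit of detection. Mst1 lies on the plus strand of chromosome 9 from 107982767 to 107987358. Supportive ISEMFs had 9 Mst1 reads (RPKM 0.0388, interval 0.0177 to 0.0737) and non-supportive ISEMFs 14 (RPKM 0.0621, interval 0.0340 to 0.104). The ratio of 0.625 had an interval of 0.239 to 1.55, so a difference was not detectable at this depth. In the annotation used here, 195 of the 2286 bases of Mst1 exons (8.53%) also belong to Rnf123 on the opposite strand. The deposited length of Mst1 is 3245 bases, and the shared part of that length was not determined. Reads that fall on more than 1 gene had been left out of the counts. Mst1r lies on the same strand, 160 kb upstream of Mst1, from 107809220 to 107822714. It had 3 reads in each library, for RPKM values of 0.00892 and 0.00918. Since 3 reads is also the limit that a count of 0 allows, no ratio is given for it. Neither the ligand nor its receptor was expressed by the RPKM minimum in either population.

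The activating protease and its inhibitors were also low in both populations. Hgfac, on the plus strand of chromosome 5 from 35384202 to 35391085, had 3 supportive and 2 non-supportive reads, which allows no ratio. Spint1, on the plus strand of chromosome 2 from 119063098 to 119075263, had 0 reads in supportive ISEMFs, where 3 reads would be an RPKM of 0.00814 and the exact interval reaches 0.0100. Non-supportive ISEMFs had 14 Spint1 reads (RPKM 0.0391, interval 0.0214 to 0.0656). With 3 reads set in place of 0, the supportive level of Spint1 was 4.802-fold lower, and the exact interval of the ratio, which also counts the error of the 14 reads, starts at 3.41-fold lower. Spint2 lies on the minus strand of chromosome 7 from 30041350 to 30066996. Its 4 supportive reads gave an RPKM of 0.0327 (interval 0.00892 to 0.0838). Its 45 non-supportive reads gave 0.379 (interval 0.276 to 0.507). These intervals did not overlap, and Spint2 was 11.6-fold lower in supportive ISEMFs, with a wide interval of 4.22 to 44.3. Both inhibitors thus had their reads mainly in the non-supportive library, but at levels under an RPKM of 0.4.

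Of the 7 genes, 2 were expressed, and 1 of these, Hgf, was past a 2-fold difference. Over all expressed genes, 18.3% were past a 2-fold difference, with 9.01% higher and 9.27% lower in supportive ISEMFs. With 2 genes to count, the share in this family cannot be read against that background. The other 5 genes were below the minimum in both libraries and do not enter the count.

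**Figure D2:**
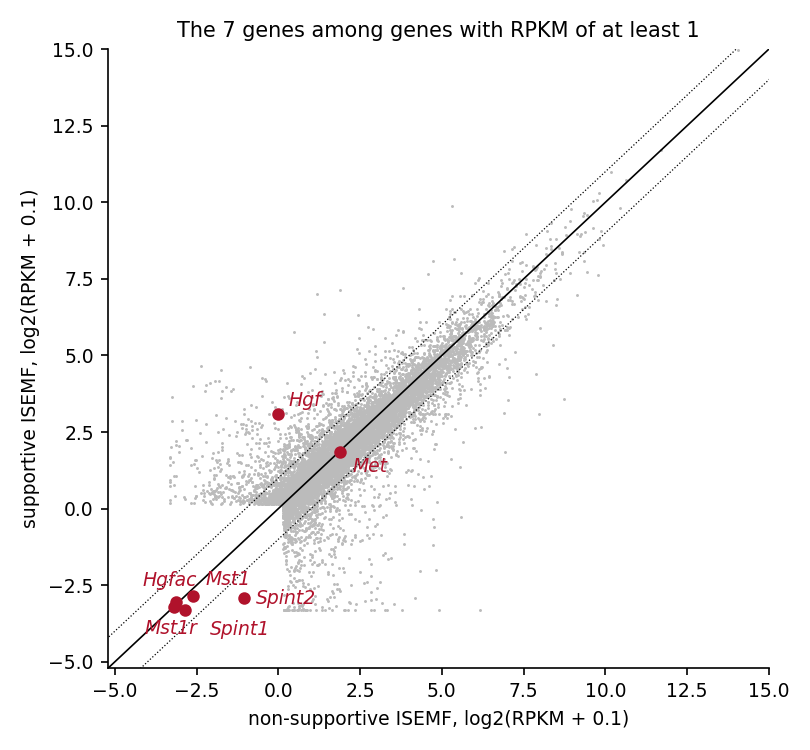
Supportive against non-supportive level, each as log2(RPKM + 0.1), for all expressed genes (grey) and for the 7 genes (red). The solid line marks equal values and the dotted lines a 2-fold difference. Hgf lies above the upper dotted line and Met on the line of equality. Mst1, Mst1r, Hgfac, Spint1 and Spint2 lie in the lower left corner, where the RPKM minimum leaves no grey points.

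Hgf and Mst1 were next placed among 43 ligands of receptor tyrosine kinases, by RPKM within each library. In the supportive library Hgf ranked 11, between Fgf7, a fibroblast growth factor made by stromal cells, and Ereg, a ligand of the EGF family. Fgf7 was at 8.89 with an interval of 8.59 to 9.18, which overlaps that of Hgf, while Ereg at 6.08 (interval 5.80 to 6.36) lay below it. In the non-supportive library Hgf ranked 21. There it stood between the EGF family ligand Nrg1 at 0.894 and Fgf1 at 0.864, and neither differed from Hgf beyond counting error. The highest ligand of the supportive library was Figf, which encodes vascular endothelial growth factor D, at 43.7. Mst1 ranked 32 and 34. Its neighbours were Areg and Gdnf in the supportive library, with 4 and 8 reads, and Igf2 and Epgn in the non-supportive library, with 82 and 7 reads.

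Fgf7 and Fgf10, like Hgf stromal ligands that act on epithelial receptors, had the opposite direction. Fgf7 had 3502 reads (RPKM 8.89) in supportive and 9664 (25.2) in non-supportive ISEMFs. Fgf10 had 3593 reads (10.3) against 9228 (27.2). Igf1, another stromal growth factor, went the way of Hgf, at 2.73 against 1.16. Fgf10 and Igf1 were named after their values were seen. Of the 21 expressed ligands, 7 were past 2-fold higher and 10 past 2-fold lower in supportive ISEMFs, beside 9.01% and 9.27% of all expressed genes, with a median log2 ratio of -0.60. Hgf's log2 ratio of 3.09 was second only to that of Figf, 4.06, among these 21.

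Among 54 receptor tyrosine kinases, Met ranked 14 in both libraries. In the supportive library it stood between Mertk at 5.09 and Pdgfra at 3.37, and the interval of Pdgfra (3.20 to 3.53) overlapped that of Met. In the non-supportive library it stood between Flt4 at 3.81 and Fgfr1 at 3.39, and both of their intervals overlapped that of Met. The highest receptors were Ddr2, a collagen receptor, at 46.6 in the supportive library and Axl at 62.1 in the non-supportive library. Of the 25 expressed receptors, 6 were past 2-fold higher and 8 past 2-fold lower, beside 9.01% and 9.27% of all expressed genes, and Met was among the remaining 11. Mst1r ranked 36 in both, next to Ret and Ror2 in the supportive library and Kit and Erbb3 in the non-supportive library, each of which had 7 reads or fewer there.

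**Figure D3:**
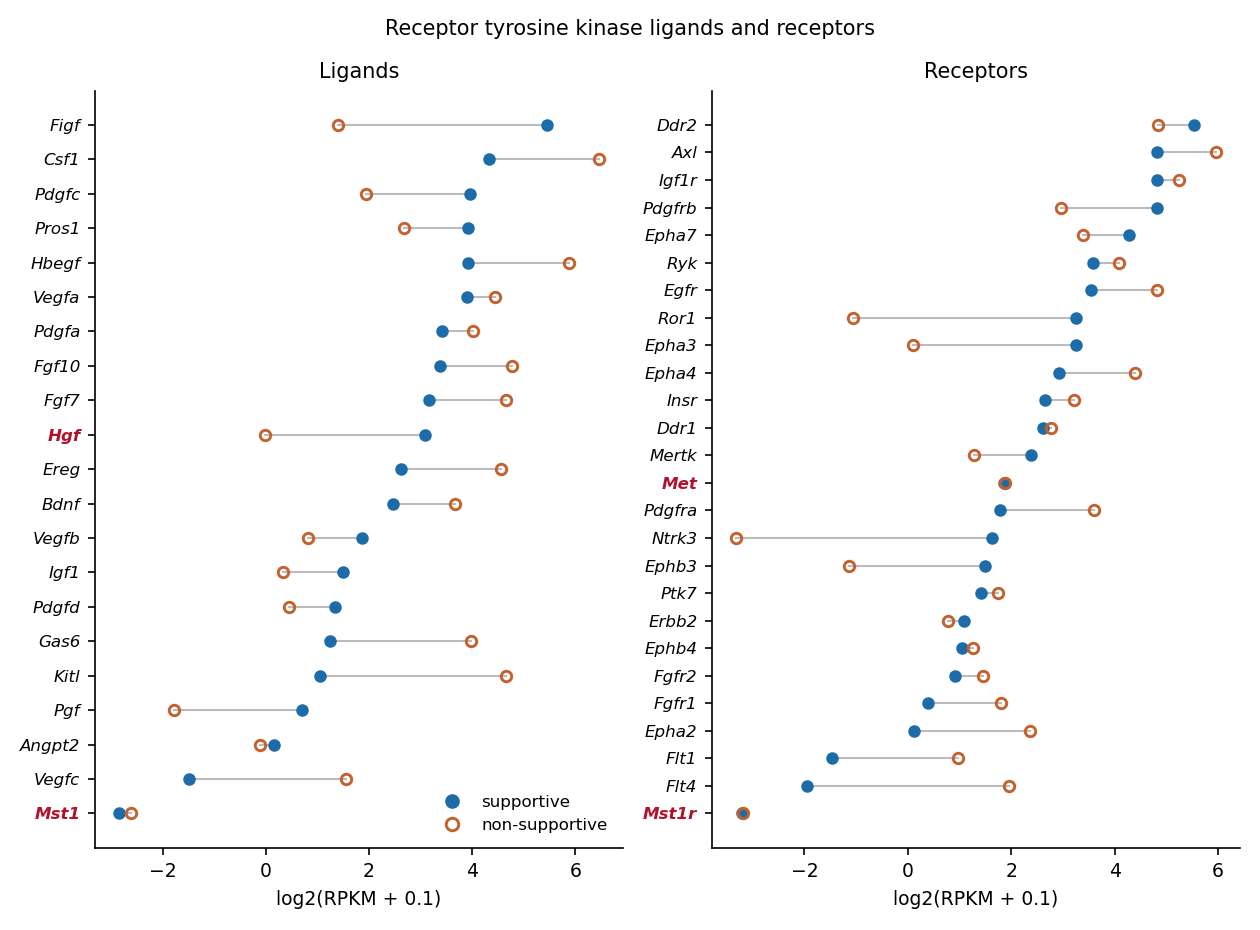
Level as log2(RPKM + 0.1) of receptor tyrosine kinase ligands (left) and receptors (right) in supportive (filled) and non-supportive (open) ISEMFs, sorted by the supportive value. Expressed genes, apart from 1 ligand, are shown with Mst1 and Mst1r added. The points of Hgf stand far apart, those of Met coincide, and Mst1 and Mst1r lie at the bottom of their panels.

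The other genes of the pathway were taken as a list of 72 genes grouped by role, of which 58 were expressed. Of these 58, 4 were past 2-fold higher and 8 past 2-fold lower in supportive ISEMFs, so 20.7% were past 2-fold against 18.3% of all genes. The median log2 ratio of the list was -0.32, against -0.07 over all genes. With mitochondrially encoded genes left out of the library size, the split was 6 higher and 7 lower.

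Of 8 further proteases that can activate Hgf or Mst1, 2 were expressed and neither was past 2-fold, beside 18.3% of all expressed genes. Plau, urokinase, had 2609 reads (RPKM 15.6) against 4900 (30.1), and was 1.93-fold lower in supportive ISEMFs (interval 1.84 to 2.03). Plat, tissue plasminogen activator, had 963 reads (5.32) against 736 (4.19). The membrane proteases Hpn (hepsin) and St14 (matriptase), which are epithelial or hepatic, had 0 and 1 reads in the supportive library and 6 and 4 in the non-supportive library. Tmprss2, another membrane protease, had 12 reads in the supportive library and 0 in the other, and the exact interval of its ratio starts at 2.70-fold higher. F12, Tmprss13 and the inhibitor gene Serpina5 had no reads in either library, and Klkb1 had 2 and 0.

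Among co-receptors and partners of Met and Mst1r, 7 of 11 were expressed, 1 of them past 2-fold higher and 3 past 2-fold lower. Over all expressed genes, 9.01% were past 2-fold higher and 9.27% past 2-fold lower. Cd44, a hyaluronan receptor that can act as a co-receptor of Met, had 11405 reads in supportive ISEMFs, at an RPKM of 12.96. Its 61510 non-supportive reads gave 71.9, so it was 5.55-fold lower in the supportive library (interval 5.44 to 5.66). Itga6, the integrin alpha 6 chain, was at 0.983 against 8.54, and Nrp2, a neuropilin, at 21.9 against 69.3. Sdc1, a heparan sulfate proteoglycan of the cell surface, went the other way, at 5.79 against 1.94. The plexins Plxnb1 and Plxnb2 and the neuropilin Nrp1 stayed within 2-fold, with log2 ratios of 0.84, 0.81 and 0.60.

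The intracellular genes are read beside the 18.3% of all expressed genes past 2-fold. Of 14 adaptors and first effectors, all expressed, 1 was past 2-fold: Src, a tyrosine kinase, at 0.509 against 1.43. Gab1, the docking protein that carries much of the signal of Met, was at 13.6 against 7.21, a log2 ratio of 0.91, and Grb2, the adaptor that brings Gab1 to Met, was at 1.57 against 2.10. Of 15 expressed genes of the kinase and GTPase cascade, Nras (16.1 against 33.9) and Rapgef1, an activator of Rap1 (2.66 against 7.003), were past 2-fold lower and none was past 2-fold higher.

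Negative regulators went both ways. Of 16 expressed, 2 were past 2-fold higher and 2 past 2-fold lower, beside 9.01% and 9.27% of all expressed genes. Spry1, an inhibitor of receptor tyrosine kinase signaling, had 2980 reads (RPKM 14.3) against 487 (2.41), a ratio of 5.95 (interval 5.402 to 6.56). Its relative Spry4 had the opposite difference, at 5.67 against 23.0, 4.05-fold lower in supportive ISEMFs (interval 3.85 to 4.26). Dcn, decorin, a matrix proteoglycan that binds Met, was at 124 against 46.5. Sh3kbp1, an adaptor for receptor endocytosis, was at 1.57 against 24.0, the lowest log2 ratio of the list at -3.85. Cbl, the ubiquitin ligase of Met, was within 2-fold at 9.29 against 13.8. Among 4 genes of receptor shedding, Timp3, an inhibitor of the sheddases Adam10 and Adam17, was at 123 against 51.0, and those sheddases were within 2-fold.

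**Figure D4:**
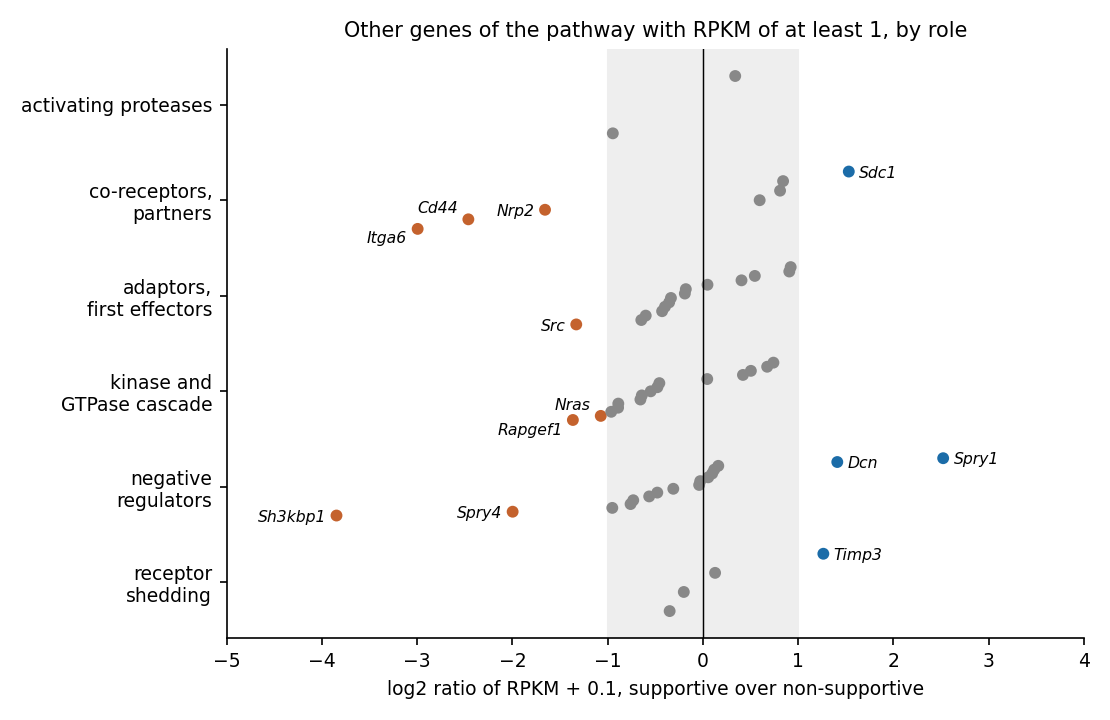
Log2 ratio of RPKM + 0.1, supportive over non-supportive, for the 58 expressed pathway genes, grouped by role. The grey band marks less than a 2-fold difference, and the 4 higher genes (blue) and 8 lower genes (orange) are named. Sh3kbp1 at -3.85 and Spry1 at 2.52 are the ends of the range.

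Markers of the cell types that could contribute reads were examined beside these results. Of 7 myofibroblast markers, 6 had an RPKM of 1 or more in supportive and 7 in non-supportive ISEMFs, and their summed RPKM was 1820 against 2654. Des was past 2-fold lower in supportive ISEMFs and Pdgfrb past 2-fold higher, beside 18.3% of all expressed genes past 2-fold. The other 5 were within 2-fold, and the median log2 ratio over the 7 was -0.64. The highest was Acta2, smooth muscle actin, at an RPKM of 908 in supportive and 1410 in non-supportive ISEMFs. Des, desmin, was at 0.575 and 3.40. Of 10 macrophage markers, all were lower in supportive ISEMFs, beside 5578 of the 10086 expressed genes with a log2 ratio below 0. The 8 expressed markers were all past 2-fold lower, beside 9.27% of all expressed genes. Cd53 differed least, at 2.61 against 5.62. The summed RPKM of the 10 markers was 9.55 against 129, led in both by Lyz2. Ptprc, Emr1, Tyrobp and Itgam had 0 reads in the supportive library. Macrophages are among the cells known to express Mst1r, which had 3 reads in each library. Hgf was higher in the library with the lower macrophage marker levels. Spint1 and Spint2 were higher in the other, and the part of macrophages in this was not tested.

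Of 13 intestinal epithelial markers, the summed RPKM was 7.77 in the supportive library, of which Lgr5 made 7.22, and 4.19 in the non-supportive library, of which Krt20 made 3.13. Epcam had 0 and 5 reads, Krt8 0 and 4, Krt18 0 and 19 and Krt19 1 and 93, and Cdx1, Cdx2 and Cldn3 had none in either library. Spint1 and Spint2, which epithelial cells express, had their reads mainly in the same library as the keratins, and the part of epithelial cells in this was not tested. Lgr5 and Cdh1, E-cadherin, went the other way, with 6702 and 159 reads in supportive and 4 and 18 in non-supportive ISEMFs. Of the 13 markers, 2 had a log2 ratio above 0 and 8 below 0, some of them from few reads. Over all expressed genes, 4508 had a log2 ratio above 0 and 5578 below 0. Of 7 fibroblast markers, 4 were past 2-fold higher in the supportive library and Pdgfra was past 2-fold lower, beside 9.01% and 9.27% of all expressed genes. The summed RPKM of the 7 was 1235 against 494. Col1a1 was within 2-fold, and Fap was not expressed. The hepatocyte list, of interest because Mst1 and Hgfac are liver genes, summed to an RPKM of 0.0430 and 0.0348, with no reads for Alb, albumin, in either library. Endothelial and mesothelial markers summed to under an RPKM of 0.3 in each library.

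**Figure D5:**
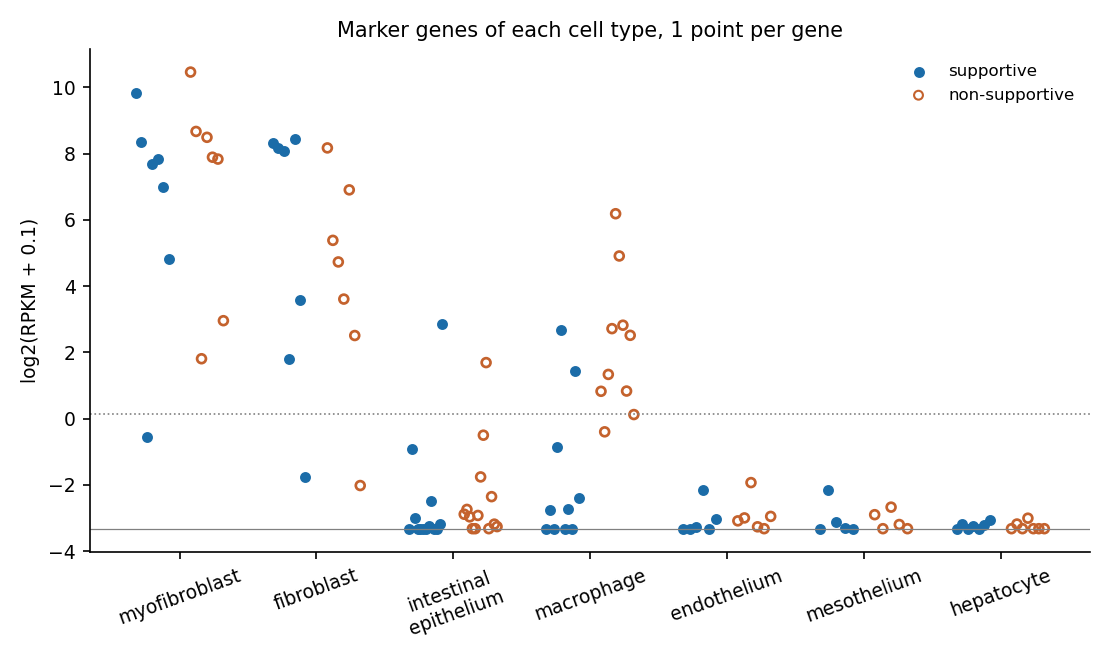
Level as log2(RPKM + 0.1) of marker genes by cell type, with 1 point per gene, in supportive (filled) and non-supportive (open) ISEMFs. The dotted line is an RPKM of 1 and the solid line an RPKM of 0. Macrophage markers are higher in the non-supportive library for all 10 genes, and endothelial, mesothelial and hepatocyte markers lie near 0 in both.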

How the data were processed

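RNA of 1 supportive and 1 non-supportive ISEMF culture was made into cDNA libraries (TruSeq RNA Sample Kit) and read as single ends of 50 bases. The authors aligned reads to mm9 with TopHat2 2.0.4 (version from the submitters' processing notes), allowing 2 mismatches and unique hits only, and counted them with HTSeq. The deposited counts are whole numbers of reads for each gene and were not normalized. The deposited RPKM values were made by the authors from those counts, the union of exons and the library size. The table's log2 ratio and p-value columns hold the authors' own DESeq comparison and were not used.

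Libraries were assigned by the population in their titles. With 1 library per population, neither edgeR nor DESeq2 could estimate a spread between replicates, so values, ratios and a 2-fold threshold among expressed genes (RPKM of 1 or more in either) are given. Intervals are exact Poisson (level) and Clopper-Pearson (ratio). For ratios against 0 reads, 3 reads per library stood in for 0, and none is given where both libraries had 3 or fewer. Settings tried were pseudocounts of 1 and 0.001, other scalings (TMM of edgeR 4.0.16, size factors of DESeq2 1.42.0, a median log2 ratio of 0, no mitochondrially encoded genes), other RPKM minimums and other folds. Both size factors came out as 1, so that setting compared the libraries without scaling for library size. Intervals were tried on simulated Poisson counts, which hold counting error only and so cannot speak to variation between cultures.

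Members and gene lists were chosen with earlier results of these data known. The genes named are the 7 members, list genes past 2-fold, the top gene and a member's neighbours in each rank order, the nearest genes by level and by position, and the leading markers, and others were chosen after their values were seen. The values of 1 ligand that the rule names are not reported here, though it is counted in the list. All 37309 gene identifiers are in GENCODE vM1 (mm9), used for positions and coding sequences. Its exon length equals the deposited one for 3 of the 7 genes, and why the lengths of the others differ was not tested. The second deposited table, a list of Wnt pathway genes, was not used. Python 3.11.15, scipy 1.17.1, Biopython 1.88 and R 4.3.3 were used.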

Additional observations from a re-analysis of the deposited data

How the results depend on the processing

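The log2 ratio of Hgf was 3.09 and ranged from 2.31 with a pseudocount of 1 to 3.23 with 0.001, and no setting changed its direction or took it under 2-fold. Low genes depended on the pseudocount by construction: with 1 and 0.001, Spint1 was at -0.055 and -5.33 and Spint2 at -0.42 and -3.49, and with 0.001 Mst1 was at -0.67. Met was at 0.091 without mitochondrially encoded genes in the library size. Without a minimum RPKM, 2 members were past 2-fold, the second being Spint2. The count of all genes past 2-fold, 1844, was 1199 with a pseudocount of 1, 3660 without a minimum, 878 with a minimum of 5, 659 at 4-fold and 3638 at 1.5-fold. For the pathway list, 12 genes became 4 at 4-fold and 30 at 1.5-fold. The remaining 45 of 60 recomputed values stayed within the interval of the reads or within 1.5 times the count. No paired analysis was possible because each population has 1 library. No library could be left out for the same reason, and differences for genes with 3 reads or fewer in both libraries were not detectable at this depth.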

Other observations

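Of the genes next to the 7 members on the chromosomes, 6 of 14 were expressed, beside 9110 of all 22379 protein-coding genes. Cacna2d1, a calcium channel subunit gene 179 kb before Hgf, was at an RPKM of 11.6 in supportive and 9.70 in non-supportive ISEMFs, and Gm8991, 111 kb after it, had 1 and 3 reads. Met lies between Cav1, the caveolin 1 gene, at 34.5 and 60.0, and Capza2, an actin capping protein gene, at 38.9 and 34.5. Apeh begins 389 bases after Mst1 and was at 3.03 and 3.18, while Mst1 itself had 9 and 14 reads. Rgs12, 1.91 kb before Hgfac, was at 0.966 and 1.12. Of the 6 expressed neighbours, 1 was past 2-fold, beside 18.3% of all expressed genes, and 6 genes are too few to read against that share. It was Ppp1r14a, 7.34 kb from Spint2 on the chromosome, at 5.74 and 2.68. Spint2, which was below the RPKM minimum, had the opposite direction.

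By distance over log2(RPKM + 0.1) in the 2 libraries, the 3 protein-coding genes nearest to Hgf among the 9110 expressed ones were Prex2 (8.43 and 0.834), Bves (8.55 and 0.977) and Lifr, a cytokine receptor gene (9.08 and 0.857). Those nearest to Met were Pbx2 (3.56 and 3.61), Exosc10 (3.56 and 3.63) and Coasy (3.49 and 3.64). With 2 libraries, this likeness describes levels only.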
